A study of Mus musculus with 25 samples.

Results

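Sodium, calcium and related channels were examined in cortical neurons of mice with the repressor REST intact or targeted for deletion, after spinal cord injury (SCI) or sham surgery. The genes are the 47 of 9931 measured genes whose mouse symbols name sodium channels (Scn), voltage-gated calcium channel subunits (Cacn), TRPC, TRPM and TRPV channels, ryanodine receptors (Ryr), inositol trisphosphate receptors (Itpr), or calcium pumps (Atp2a, Atp2b and Atp2c). Chloride channels and transporters (Clcn), Orai channels and Stim sensors complete them. The rule reads the symbol alone. Among them are 4 pore-forming sodium channel subunits, 5 calcium channel pore subunits, 2 Cacna2d, 3 Cacnb and 4 Cacng auxiliary subunits. There are also 6 genes with TRP symbols, 2 ryanodine and 3 inositol trisphosphate receptors, 1 Atp2a, 4 Atp2b and 1 Atp2c pump, 2 Stim and 3 Orai genes and 5 Clcn genes. *Trpc4ap* matches the symbol pattern but encodes a protein that binds TRPC4 rather than a channel.

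The mice were C57BL/6 animals with both *Rest* alleles floxed and a homozygous TdTomato reporter that Cre switches on, so the controls carried the floxed alleles too. AAV-Syn-GFP (WT) or AAV-Syn-Cre (REST cKO) was injected into the sensorimotor cortex, with the synapsin promoter directing GFP or Cre to neurons. The spinal cord was then completely crushed at thoracic level 10 or sham-operated. GFP-positive or tdTomato-positive neurons were isolated by FACS and sequenced with a 3′ mRNA-seq kit, whose reads come from transcript ends. The animals were young adults of 4 to 6 weeks and of both sexes. The 25 libraries formed 8 groups, and values are given below in the order of the replicate numbers listed here. In WT these were sham (replicates 3, 10, 14 and 17) and SCI at day 1 (1, 8 and 11), day 3 (5, 16 and 22) and day 7 (4, 7 and 12). In REST cKO they were sham (6, 18 and 23) and SCI at day 1 (19 and 25), day 3 (9, 15, 20 and 27) and day 7 (2, 13 and 26). The labels put 10 libraries in batch 1, 10 in batch 2 and 5 in batch 3, and do not say what a batch was. All values are log2 normalized counts as deposited. The table holds no read totals and the study gives an average depth only, so how deeply a single library was sequenced is not known. A value after ± is the standard deviation (SD) between the libraries of a group. A standard error is that of a fitted difference, from a model over all 25 libraries.

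Voltage-gated sodium channels open the upstroke of the action potential, and in cortical pyramidal neurons they are concentrated at the axon initial segment and the nodes of Ranvier. Voltage-gated calcium channels turn that depolarization into calcium entry that drives transmitter release, dendritic signalling and gene expression. Ryanodine and inositol trisphosphate receptors release calcium from the endoplasmic reticulum, and the pumps return it there or out of the cell. REST silences neuronal genes by binding the RE1 element, which was first described in the gene of the brain sodium channel *Scn2a*.

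*Rest* was examined first, as a check of the genotype labels. Its log2 values were -2.65, -0.79 and -0.52 in the 3 REST cKO sham libraries. At day 1 they were -0.43 and -0.40 in REST cKO and -1.35, 0.71 and 0.27 in WT, and at day 7 they were -1.21, -0.33 and -0.97 in REST cKO and 0.26, 2.30 and 2.74 in WT. The genotypes separated completely at days 3 and 7 and overlapped in sham and at day 1. Within batches the REST cKO minus WT difference was -2.24 in batch 1 and 0.18 in batch 2 in sham, where it changed sign. At day 1 it was -0.70 in batch 2, the only batch holding both groups. It was -1.68 in batch 1, -3.15 in batch 2 and -2.16 in batch 3 at day 3. At day 7 it was -2.50 in batch 1 and -3.07 in batch 2. By limma 0 of the 4 genotype differences of *Rest* had an adjusted p under 0.1, and that of day 7 alone had an unadjusted p-value under 0.05. Omitting 1 library took the sham difference from -1.47 to -0.51 without REST cKO sham replicate 6, and the day 3 difference of -1.61 to -0.63 without WT SCI day 3 replicate 16. *Rest* kept a correlation of 0.326 with a sequencing component that the authors had regressed out. Without the components the sham difference was -0.63 (from -1.47) and that of day 1 -0.29 (from -1.37). Those of days 3 and 7 were -2.24 and -2.61 (from -1.61 and -2.28). Which exons the floxed allele loses is not given in the sources used here, so whether the 3′ reads of *Rest* lie in the deleted part is not known. The values check the labels only to that extent.

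Marker genes were used to check the sorted cells. All 5 neuron markers were measured, the most abundant being *Syt1*, and their summed level on the linear scale ran from 6.33 to 33.8 per library. Of 6 excitatory cortical neuron markers 6 were measured (9.44 to 27.3, most abundant *Nrgn*). Of 7 deep-layer corticospinal markers 4 were measured (3.60 to 22.8, most abundant *Bcl11b*). The defining corticospinal markers *Fezf2*, *Crym* and *Ldb2* are absent from the table. *Pvalb* and *Sst* are absent too, and 4 of 6 inhibitory neuron markers were measured (1.76 to 11.7, most abundant *Gad2*). Genes of other cell types were also present. All 8 microglia markers were measured, with no value under -2 and a summed level of 51.3 to 85.2. The 5 endothelial markers summed to 16.8 to 42.4 (most abundant *Flt1*). Of the glial lists, 6 of 6 oligodendrocyte markers summed to 5.42 to 46.0 (most abundant *Mbp*), and 1 of 2 oligodendrocyte precursor markers, *Cspg4*, ran from 0.955 to 10.6. For astrocytes 4 of 7 markers were measured, summing to 7.97 to 42.5 (most abundant *Slc1a3*). The astrocyte markers *Gfap*, *Aqp4* and *Aldh1l1* are absent from the table. Several of the channel genes, such as *Itpr2*, *Orai1*, *Trpm2* and *Trpv2*, are also known from glia or immune cells. In bulk libraries, fewer cells of a type and less RNA per cell cannot be told apart.

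The 47 genes ran from -3.89 to 3.55, and 31 of them had a mean log2 value of at least 0, as did 6901 of the 9931 genes. Low values were as frequent as among all genes, with 104 of the 1175 values (8.85%, all genes 8.57%) under -2. At least 1 such value occurred in 27 of the 47 genes. Replicates of a group differed widely for most of these genes, the pooled standard deviation within groups having a median of 1.16 (all genes, 1.12). It was smallest for *Atp2b1* (0.19) and *Atp2a2* (0.22), a plasma membrane and a reticulum calcium pump, and largest for *Orai2* (1.66). Of single libraries, WT SCI day 3 replicate 5 had 29.8% of the 47 values under -2 and WT SCI day 7 replicate 7 had 25.5%, while the other libraries had between 0% and 14.9%. The authors had regressed 2 sequencing components out of the values. A correlation with a component was kept by 3 of the 47 genes and by 140 of the 9931 genes. The 3 were *Cacng3* (0.113), *Cacna2d1* (0.0859) and *Cacna2d3* (0.0189).

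Over the 12 comparisons of the design, 0 of the 47 genes had an adjusted p under 0.1 when limma tested all 9931 genes. An unadjusted p-value under 0.05 occurred 23 times in 564 tests (4.08%, all genes 6.20%). It concerned 12 genes: *Scn2a*, *Scn8a*, *Cacna1a*, *Cacna2d1*, *Cacna2d3*, *Cacnb2*, *Cacnb4*, *Cacng3*, *Trpc1*, *Trpm7*, *Itpr1* and *Atp2b4*. Of these, 5 had it more than once, and the comparisons share control libraries. Their values follow by comparison.

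Injury in neurons with intact REST was examined against the 4 WT sham libraries, which all 3 time points share. At day 1 the gene that stood out was *Scn8a* (chr15:100869858-101045938, plus strand, GRCm38), which encodes the sodium channel that sets the firing threshold at the axon initial segment and nodes. *Scn8a* read 2.19, 2.32 and 2.43 in the 3 injured libraries and 0.15, 0.18, 0.22 and 0.58 in the 4 sham libraries. Every injured library lay above every sham library, with a gap far wider than the range within either group. The log2 fold change fitted was 2.24 (standard error 0.57, n = 3 and 4, adjusted p = 0.439 from limma), and the injured minus sham difference was 2.09 in batch 1 and 2.03 in batch 2. It did not pass the threshold of 0.1. With library weights it did (log2 fold change 2.13, adjusted p = 0.0713 from limma), the adjusted p over all alternatives ranging from 0.0713 to 0.888. Of the 47 genes, limma gave 0 with an adjusted p under 0.1 and 1 with an unadjusted p-value under 0.05, where 0% and 6.43% of all genes met these limits. The injured and sham libraries did not overlap for 6 of the 47 (all genes, 7.02%): *Scn1a*, *Scn8a*, *Cacnb3* and *Clcn3* were higher and *Atp2c1* and *Trpm1* lower in every injured library. The median log2 fold change of the 47 was 0.36 (all genes, 0.12) and 33 were positive. Quantile normalization moved the median of all genes to -0.02 and that of the 47 to 0.27. The count of 1 became 3 without WT sham replicate 3 or 10, and it was 2 without WT sham replicate 14 or 17 or WT SCI day 1 replicate 8. Neuron markers had summed levels of 19.6, 30.6 and 24.6 after injury against 6.33, 18, 15.5 and 17.4 in sham, 1 of 5 being higher at an unadjusted p-value under 0.05. All 4 astrocyte markers measured were higher at that limit (summed 42.5, 26.8 and 15.2 against 7.97, 11.5, 11.1 and 14.2). The 6 oligodendrocyte markers were all positive, 2 at that limit, with sums of 5.42, 46.0 and 33.7 against 10.9, 8.01, 9.24 and 5.59, and 1 of 6 excitatory neuron markers was higher. Excitatory neuron sums of 19.1, 24.4 and 18.1 against 11.1, 17.9, 12.9 and 16.6 did not overlap. The 4 inhibitory neuron and 5 endothelial markers were all positive and the 8 microglia markers all negative. Their part in the result was not tested.

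At day 3 *Scn8a* was again the 1 gene with an unadjusted p-value under 0.05. Its injured libraries read 2.77, 0.97 and 2.78, against the same sham values. The lowest of them, replicate 16, lay close to the highest sham library, while replicates 5 and 22 lay above every other WT library. In the fit the log2 fold change was 2.01 (standard error 0.61, n = 3 and 4, adjusted p = 0.580 from limma), with differences of 2.60 in batch 1 and 0.57 in batch 2. Batch 3 holds no WT sham library. In limma's test 0 of the 47 genes had an adjusted p under 0.1 (all genes, 0.0101%) and 1 an unadjusted p-value under 0.05 (all genes, 6.90%). Injured and sham libraries were separate for 3 of the 47 (all genes, 6.54%), namely *Scn8a*, *Cacna1b* and *Cacnb3*, all higher after injury. *Cacna1b* forms the pore of the N-type channel of presynaptic terminals, and *Cacnb3* is a cytoplasmic subunit that carries calcium channels to the membrane. *Cacnb3* read 0.65, 0.32 and 0.69 at day 3 and 0.73, 1.24 and 0.41 at day 1 against -3.15, -0.67, -2.05 and 0.05 in sham. *Cacna1b* read 0.47, 1.19 and 0.65 at day 3 against -0.83, -0.63, -0.86 and 0.34. In both genes 1 sham library lay close to the injured ones. The fitted differences of 2.38 (standard error 1.23) and 1.67 (standard error 0.89) at day 3 had unadjusted p-values above 0.05. The 47 genes had a median log2 fold change of 0.25 (all genes, 0.01), and 32 of them were positive. With single libraries omitted the count was 3 without WT sham replicate 10, and it was 2 without WT sham replicate 14 or 17 or WT SCI day 3 replicate 16 or 22. Neuron markers summed to 25, 22.7 and 14.9 and 2 of 5 were higher at an unadjusted p-value under 0.05. At that limit 3 of 4 astrocyte markers were higher (summed 18.4, 26 and 16.3). The 4 astrocyte and 5 endothelial markers were all positive. Other lists had 1 of 6 excitatory neuron and 2 of 5 endothelial markers higher and 1 of 8 microglia markers lower, and their part in the result was not tested.

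At day 7 the differences ran the other way for *Cacna2d1* (chr5:15934691-16374511, plus strand), whose product is the auxiliary subunit that carries calcium channels to the surface and binds gabapentin. *Cacna2d1* read -2.70, -2.99 and -1.49 in the 3 injured libraries and -0.78, 1.04, 1.24 and 0.35 in sham. All injured libraries were below all sham libraries, and 2 of the 3 were under -2. In the fit *Cacna2d1* differed on the log2 scale by -2.82 (standard error 0.98, n = 3 and 4, adjusted p = 0.501 from limma), with -2.98 in batch 1 and -2.29 in batch 2. With quantile normalization it was -1.52. *Trpm7* (chr2:126791565-126876230, minus strand), a channel fused to a protein kinase that carries magnesium and calcium, read 0.47, -0.92 and 1.34 after injury and 2.32, 1.60, 2.20 and 1.19 in sham. The injured replicate 12 lay within the sham range, and replicate 7 was the lowest library. Its log2 fold change was -1.67 (standard error 0.74, n = 3 and 4, adjusted p = 0.656 from limma), with -2.18 in batch 1 and -0.35 in batch 2. It became -1.0 without WT SCI day 7 replicate 7. These were the 2 genes with an unadjusted p-value under 0.05 (all genes, 6.89%), both lower, and 0 of the 47 passed the adjusted threshold in limma's test (all genes, 0%). The groups did not overlap for 3 of the 47 (all genes, 6.87%), *Cacna2d1* and *Cacnb2* being lower and *Orai1*, a store-operated calcium channel, higher. The median of the 47 was -0.14 and that of all genes -0.12, with 20 of 47 positive. Under quantile normalization these medians were 0.08 and 0.01, so both had the other sign. The count of 2 was 1 without WT sham replicate 14 or WT SCI day 7 replicate 7. The 3 injured mice were all female, against 2 female and 2 male sham mice, and a term for sex gave 4 genes with an unadjusted p-value under 0.05. Of 5 neuron markers 0 had an unadjusted p-value under 0.05 by limma, the sums being 18.2, 18.4 and 8.33 after injury. Of 4 astrocyte markers 2 were higher at that limit. Oligodendrocyte sums of 13.4, 16.9 and 11.5 against 10.9, 8.01, 9.24 and 5.59 did not overlap. The 5 endothelial markers were all positive, and their part in the result was not tested.

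**Figure D1:**
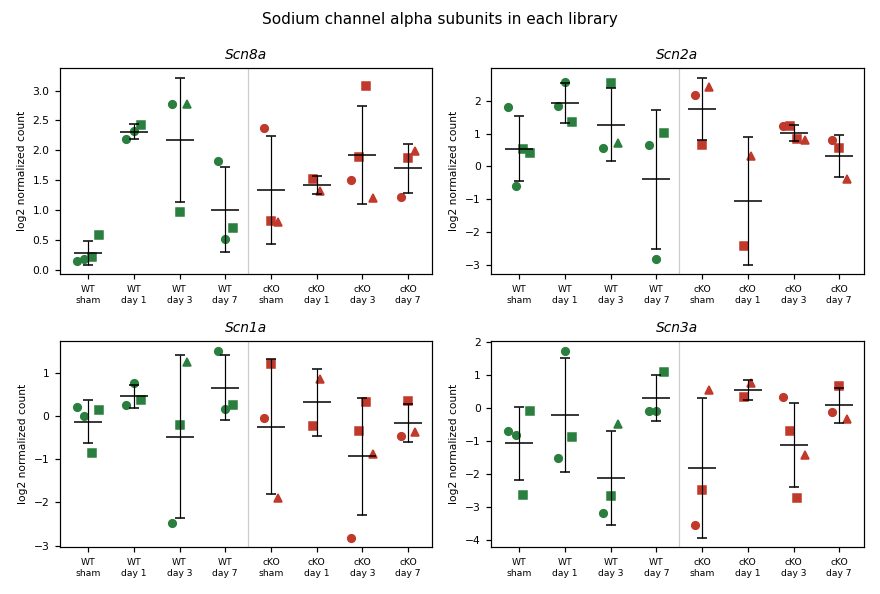
Log2 normalized counts of Scn8a, Scn2a, Scn1a and Scn3a in each of the 25 libraries, by group, with WT in green, REST cKO in red, circles for batch 1, squares for batch 2 and triangles for batch 3; the bar and whiskers are the group mean and SD. The WT libraries of Scn8a at days 1 and 3 lie above the 4 WT sham libraries, which span 0.15 to 0.58, and no fitted difference passed the adjusted threshold.

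REST cKO was compared with WT, in sham and at each time after injury. Genotype went with the injected virus and the sorted colour, so these cannot be told apart. In sham, *Cacnb2* (chr2:14603088-14987908, plus strand), another of the cytoplasmic subunits that traffic calcium channels and tune their gating, was lower in REST cKO. *Cacnb2* read -3.40, -1.21 and -1.53 in the 3 REST cKO and 1.02, -0.64, -0.34 and 1.12 in the 4 WT libraries. The genotypes did not overlap, although the 2 higher REST cKO libraries lay within 1 log2 unit of the lowest WT library. *Cacnb2* differed on the log2 scale by -2.69 (standard error 1.27, n = 3 and 4, adjusted p = 0.692 from limma), with -3.59 in batch 1 and -1.60 in batch 2. Without REST cKO sham replicate 6, the lowest library, it was -1.39. It was the 1 of the 47 genes with an unadjusted p-value under 0.05 (all genes, 6.91%), and 0 of the 47 passed the adjusted threshold of limma's test (all genes, 0.0302%). Libraries of the genotypes were separate for 3 of the 47 genes (all genes, 7.86%). Besides *Cacnb2* these were *Atp2b4* and *Scn8a*, both higher in every REST cKO library. *Atp2b4*, a plasma membrane calcium pump, read 2.13, 1.96 and 2.17 in REST cKO and 0.92, 1.60, 1.43 and 1.43 in WT. *Scn8a* read 2.38, 0.82 and 0.81 in REST cKO. WT sham had the lowest of the 8 group means of *Scn8a*, 0.28 ± 0.20 (SD, n = 4), and those 4 libraries also enter its day 1 and day 3 differences in WT. The median log2 fold change of the 47 was 0.18 (all genes, 0.04), with 30 positive. The count of 1 was 4 without REST cKO sham replicate 6, 3 without REST cKO sham replicate 23, 2 without WT sham replicate 14 or REST cKO sham replicate 18, and it was 0 without WT sham replicate 3 or 17. Neuron markers were also higher in REST cKO sham, with sums of 31.9, 24.7 and 33.8 against 6.33, 18, 15.5 and 17.4. Of the 5, 3 were higher at an unadjusted p-value under 0.05. The 4 astrocyte markers measured were all higher at that limit (sums 27.5, 23.1 and 18.4 against 7.97, 11.5, 11.1 and 14.2). Of 8 microglia markers 2 were lower (sums 52.5, 56.5 and 71.1 against 72.8, 77.9, 77.5 and 65.0). Inhibitory neuron markers were all 4 positive, with sums of 9.75, 11.7 and 8.96 against 1.85, 4.97, 2.11 and 8.31, which do not overlap. The 5 endothelial markers were all positive and the 8 microglia markers all negative. Further lists had 1 of 6 excitatory neuron and 1 of 5 endothelial markers higher. The part of these cells in the result was not tested, and the REST cKO sham mice were all male.

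At day 1, where REST cKO had 2 libraries, the gene with an unadjusted p-value under 0.05 was *Scn2a* (chr2:65620771-65767447, plus strand), the sodium channel of unmyelinated axons and the proximal initial segment. *Scn2a* read -2.43 and 0.32 in REST cKO and 1.84, 2.57 and 1.37 in WT. Both REST cKO libraries were below all WT libraries, but they differed from each other by more than the WT libraries did. The log2 fold change fitted was -3.35 (standard error 1.20, n = 2 and 3, adjusted p = 0.999 from limma). In batch 2, the only batch holding both groups, the difference was -3.80. Without REST cKO SCI day 1 replicate 19 it was -1.48, and the 1 REST cKO library left was assumed to vary like the other groups. In limma's test 0 of 47 genes passed the adjusted threshold (all genes, 0%), and 1 had an unadjusted p-value under 0.05 (all genes, 3.81%). With so few libraries the groups were separate for 10 of the 47 genes, against 18.6% of all genes. *Cacnb2*, *Cacng4*, *Stim2* and *Trpc1* were higher and *Scn2a*, *Scn8a*, *Atp2b2*, *Cacnb3*, *Clcn3* and *Trpv2* lower in REST cKO. Of these, *Scn8a* read 1.52 and 1.32 against 2.19, 2.32 and 2.43. *Clcn3*, a chloride-proton exchanger of endosomes and synaptic vesicles, read 1.38 and 1.68 against 2.41, 2.28 and 2.64. The fitted differences, -0.93 (standard error 0.73) and -1.30 (standard error 0.94), were under 2 standard errors. The median of the 47 was -0.02 (all genes, 0.19), and 22 were positive. Under quantile normalization the medians were -0.18 and -0.01. The count was 2 without WT SCI day 1 replicate 1 or 11 or REST cKO SCI day 1 replicate 25, and it was 0 without WT SCI day 1 replicate 8 or REST cKO SCI day 1 replicate 19. None of the 5 neuron markers had an unadjusted p-value under 0.05 or an adjusted p under 0.1 in limma's test, with sums of 20.1 and 14.4 against 19.6, 30.6 and 24.6. The 5 neuron and 6 oligodendrocyte markers were all negative and the 5 endothelial markers all positive, and their part in the result was not tested.

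At day 3 *Cacna1a* (chr8:84388440-84640246, plus strand), the pore of the P/Q-type channel that triggers transmitter release at most central synapses, was lower in REST cKO. *Cacna1a* read -3.11, -2.45, -2.35 and -1.94 in the 4 REST cKO libraries and 0.87, 1.48 and 1.15 in the 3 WT libraries. The genotypes were wide apart, and each group was tight for this gene, with 3 of the 4 REST cKO libraries under -2. In the fit *Cacna1a* differed by a log2 fold change of -3.97 (standard error 1.14, n = 4 and 3, adjusted p = 0.645 from limma), and the difference was -3.98 in batch 1, -3.88 in batch 2 and -3.10 in batch 3. *Itpr1* (chr6:108213096-108551109, plus strand), the main inositol trisphosphate receptor of neurons, read 0.32, 1.49, 1.14 and 1.17 in REST cKO and 2.19, 1.25 and 2.37 in WT. The groups overlapped, since WT replicate 16 lay within the REST cKO range. The log2 fold change of *Itpr1* was -1.10 (standard error 0.51, n = 4 and 3, adjusted p = 0.780 from limma). By batch it was -1.87 in batch 1, 0.07 in batch 2 and -1.20 in batch 3, so batch 2 did not share the direction. It was -1.66 without WT SCI day 3 replicate 16. These 2 of the 47 genes had an unadjusted p-value under 0.05 (all genes, 6.37%), both lower, and 0 passed the adjusted threshold in limma's test (all genes, 0%). For 2 genes, *Cacna1a* and the plasma membrane pump *Atp2b1*, every REST cKO library was below every WT library (all genes without overlap, 7.59%). *Atp2b1* read 2.48, 2.47, 2.64 and 2.49 against 2.67, 2.76 and 3.01. The fitted difference of -0.34 (standard error 0.23) had an unadjusted p-value above 0.05. The 47 genes had a median of -0.09 (all genes, 0.05), with 21 positive. With single libraries left out the count became 5 without WT SCI day 3 replicate 16, 4 without REST cKO SCI day 3 replicate 20, and it was 1 without REST cKO SCI day 3 replicate 9. Of 5 neuron markers 0 had an unadjusted p-value under 0.05 by limma, with sums of 19.6, 17.9, 21.0 and 19.1 in REST cKO and 25, 22.7 and 14.9 in WT. The 6 excitatory neuron markers were all negative. Other lists had 1 of 6 excitatory neuron, 1 of 8 microglia and 1 of 5 endothelial markers lower at that limit, and their part was not tested.

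In the day 7 comparison of genotypes 5 of the 47 genes (10.6%) had an unadjusted p-value under 0.05, as did 9.95% of all genes. All 5 were Cacn genes, and in these 5 every REST cKO library lay above every WT library. The Cacn genes did not all rise. Fitted differences were positive for 3 of 5 Cacna1, 2 of 2 Cacna2d, 2 of 3 Cacnb and 4 of 4 Cacng genes, with a median of 0.13 for Cacna1. Group means of *Cacna1c* (-0.65 against 0.69) and *Cacnb3* (-1.30 against -0.65) were lower in REST cKO. *Cacna2d1*, the gabapentin-binding auxiliary subunit, read 2.47, 3.33 and 1.16 in REST cKO and -2.70, -2.99 and -1.49 in WT. *Cacna2d3* (chr14:28904943-29721864, minus strand), a related auxiliary subunit, read 1.98, 0.98 and 0.48 and -1.47, -3.36 and -2.54. The pore subunit *Cacna1a* read 0.94, 1.24 and 1.01 and -1.09, -2.97 and -2.32. For all 3 genes 2 of the 3 WT libraries were under -2, and every REST cKO library was above 0. The cytoplasmic subunit *Cacnb4* (chr2:52428320-52676831, minus strand) read 2.08, 1.99 and 0.99 against -3.10, 0.20 and -1.02. *Cacng3* (chr7:122670492-122769393, plus strand), whose product assists AMPA receptors at synapses, read 0.07, 3.23 and 0.67 against -0.76, -0.85 and -1.65. Their groups were separate by a narrower margin, and in *Cacng3* replicate 13 lay far above the other 2 REST cKO libraries. *Cacna2d1* differed on the log2 scale by 5.03 (standard error 1.03, n = 3 and 3, adjusted p = 0.109 from limma), the smallest adjusted p of any of the 47 genes in any of the 12 comparisons. *Cacna2d1*, *Cacna2d3* and *Cacng3* were also the only ones of the 47 to keep a correlation with a sequencing component (0.0859, 0.0189 and 0.113). The part of this in their differences was not tested. *Cacna2d1* did not pass the threshold of 0.1 in the main fit. It passed when genes averaging below 0 were dropped (adjusted p = 0.0915 from limma). It also passed with a covariate for low values, the percentage below -2 in a library, added after seeing the data (5.58, adjusted p = 0.0389 from limma). Its adjusted p ranged from 0.0389 to 0.531 over the alternatives. *Cacna2d3* differed by 3.71 (standard error 1.30, adjusted p = 0.311 from limma). With standard error and adjusted p in the same order, the difference was 3.41 (1.13, 0.281) for *Cacna1a*, 3.22 (1.26, 0.372) for *Cacnb4* and 2.44 (1.09, 0.461) for *Cacng3*, each with 3 libraries per group. Without REST cKO SCI day 7 replicate 13 the difference of *Cacng3* was 0.99.

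Within batches the day 7 differences of *Cacna2d1* were 5.32 in batch 1 and 4.83 in batch 2, and those of *Cacna1a* 2.97 in batch 1 and 3.56 in batch 2. Those of *Cacna2d3* were 4.39 in batch 1 and 3.52 in batch 2, those of *Cacnb4* 3.53 in batch 1 and 3.02 in batch 2 and those of *Cacng3* 0.88 in batch 1 and 4.88 in batch 2. Batch 3 holds no WT library of day 7. In these 5 genes every REST cKO library lay above every WT library. The positive sign within each batch therefore had to follow and adds no support. By limma, 0 of 47 genes had an adjusted p under 0.1 (all genes, 0%), and the 5 genes above had an unadjusted p-value under 0.05. The genotypes did not overlap for 8 of the 47 (all genes, 12.4%). The others were *Cacnb2* and the muscle chloride channel *Clcn1*, which were higher in REST cKO, and the endosomal chloride-proton exchanger *Clcn4*, which was lower. *Cacnb2* read 0.01, 0.83 and 1.15 against -1.10, -0.77 and -1.61, and *Clcn1* read -0.47, -0.26 and -0.35 against -1.06, -3.07 and -2.60. *Clcn4* read 2.29, 2.62 and 1.70 against 2.85, 2.86 and 2.74. In *Clcn1* the REST cKO values were tight and 2 WT values were under -2, while in *Clcn4* the highest REST cKO library was only just below the lowest WT library. The 47 genes had a median log2 fold change of 0.39 and all genes one of 0.23, which quantile normalization moved to 0.10 and -0.03. Of the 47, 35 were positive. The count of 5 stayed between 4 and 6 with each library left out, and with genes averaging below 0 dropped it was 2. *Cacna1a*, *Cacna2d3* and *Cacnb4* average below 0 and leave that setting. *Cacng3* stayed with a mean of 0.12 over all libraries, which includes its highest group mean, 1.32 in REST cKO SCI day 7. That setting is therefore not independent of the group where the gene is high. All 3 WT mice were female and all 3 REST cKO mice male, so that sex and genotype cannot be told apart within day 7. The WT libraries had 8.51%, 25.5% and 14.9% of the 47 values under -2 and the REST cKO libraries 4.26%, 8.51% and 0%. Over all genes these shares were 11.1%, 17% and 12.2% and 10.7%, 8.84% and 2.77%. The 5 neuron markers were all positive in this comparison, 2 at an unadjusted p-value under 0.05. Their sums of 27.1, 25.6 and 20.6 in REST cKO and 18.2, 18.4 and 8.33 in WT do not overlap. Inhibitory neuron markers summed to 6.54, 7.50 and 4.88 against 2.61, 3.24 and 2.50 and microglia markers to 69.3, 68.9 and 66.1 against 69.8, 81.9 and 72.3, also without overlap. The 6 excitatory neuron and 4 astrocyte markers were all positive. Other lists had 1 of 6 excitatory neuron and 1 of 4 astrocyte markers higher and 1 of 8 microglia markers lower, and their part in the result was not tested.

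**Figure D2:**
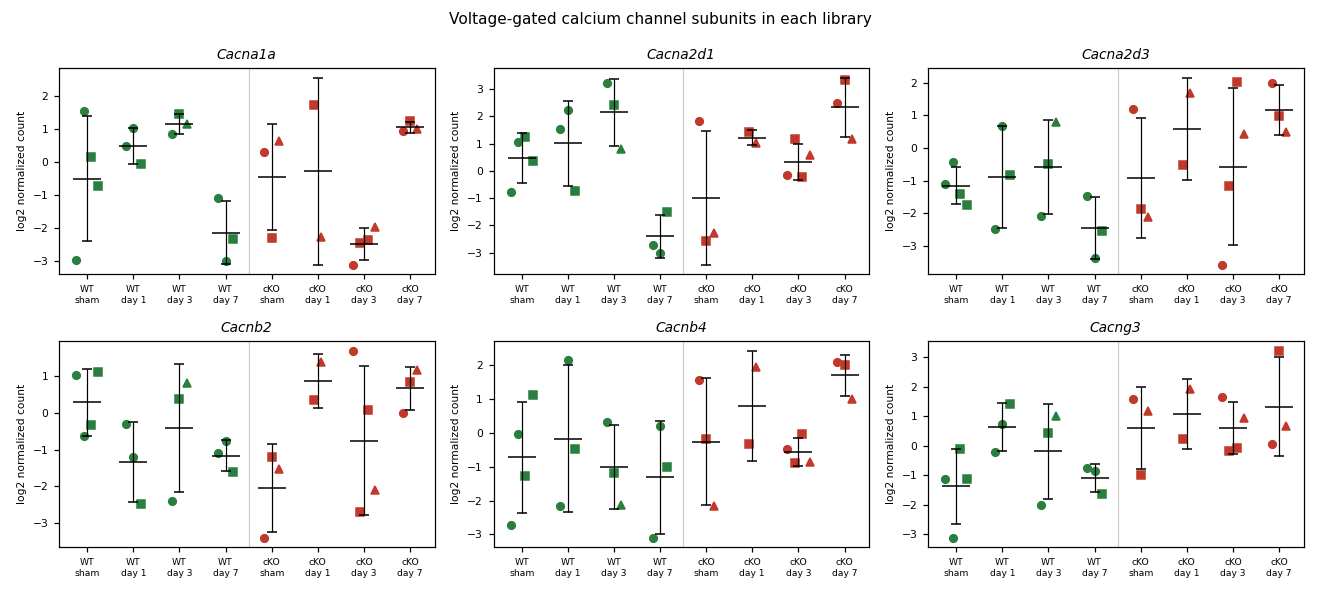
Log2 normalized counts of 6 voltage-gated calcium channel subunit genes in each of the 25 libraries, by group, with WT in green, REST cKO in red, circles for batch 1, squares for batch 2 and triangles for batch 3; the bar and whiskers are the group mean and SD. Each of the 6 had an unadjusted p-value under 0.05 by limma in at least 1 comparison, so they are a selected part of the Cacn genes. At day 7 every REST cKO library lies above every WT library for these 6, which does not hold for the Cacn genes not shown. At day 3 Cacna1a is lower in all 4 REST cKO libraries than in the 3 WT libraries. None of these differences passed the adjusted threshold.

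Injury in REST cKO neurons was measured against the 3 REST cKO sham libraries, which the 3 time points share and whose *Rest* values overlapped those of WT sham. At day 1 *Trpc1* (chr9:95705082-95750375, minus strand), a cation channel opened through phospholipase C signalling, read 1.47 and 3.55 in the 2 injured and -0.21, -1.59 and -0.78 in the 3 sham libraries. *Cacnb2* read 0.35 and 1.37 after injury and -3.40, -1.21 and -1.53 in sham, and *Scn2a* read -2.43 and 0.32 after injury and 2.16, 0.66 and 2.43 in sham. *Trpc1* and *Cacnb2* were higher and *Scn2a* lower in both injured libraries than in any sham library, with the largest gap in *Trpc1*. The log2 fold changes were 3.41 for *Trpc1* (standard error 1.21, adjusted p = 0.886 from limma). In the same form they were 2.98 for *Cacnb2* (1.29, 0.924) and -2.72 for *Scn2a* (1.04, 0.886), each with n = 2 and 3. By batch they were 3.05 in batch 2 and 4.34 in batch 3 for *Trpc1* and 1.56 in batch 2 and 2.90 in batch 3 for *Cacnb2*. For *Scn2a* they were -3.09 in batch 2 and -2.11 in batch 3, with 1 library of each group in a batch. Without REST cKO SCI day 1 replicate 25 the difference of *Trpc1* was 2.11 and that of *Scn2a* -4.40, and without replicate 19 that of *Scn2a* was -1.08. These were the 3 of 47 genes with an unadjusted p-value under 0.05 (all genes, 5.29%), and limma's adjusted test passed 0 (all genes, 0%). The groups were separate for 8 of the 47 genes, where 20.4% of all genes were. *Cacnb2*, *Cacng2*, *Itpr3* and *Trpc1* were higher, and *Scn2a*, *Atp2c1*, *Cacng7* and *Orai1* lower. The medians of 0.20 for the 47 and 0.29 for all genes became -0.13 and -0.01 with quantile normalization, so both had the other sign. Of the 47, 27 were positive. The count of 3 was 1 without REST cKO SCI day 1 replicate 25. None of the 5 neuron markers was positive, with sums of 20.1 and 14.4 against 31.9, 24.7 and 33.8, which do not overlap. Other lists had 2 of 4 astrocyte and 1 of 8 microglia markers higher at that limit. The 4 deep-layer corticospinal markers were all positive. All 6 oligodendrocyte markers were positive, with sums of 10.5 and 27.6 against 7.25, 12.4 and 10.2, and their part in the result was not tested.

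At day 3 after injury of REST cKO neurons, *Atp2b4* (chr1:133699457-133801041, minus strand), a pump that expels calcium across the plasma membrane, read 0.84, 0.94, 1.46 and 1.73 in the 4 injured and 2.13, 1.96 and 2.17 in the 3 sham libraries. *Cacna1a* read -3.11, -2.45, -2.35 and -1.94 against 0.32, -2.30 and 0.65. *Atp2b4* was lower in every injured library, whereas for *Cacna1a* the sham libraries were split, with 1 of the 3 as low as the injured ones. The log2 fold change of *Atp2b4* was -1.10 (standard error 0.51, n = 4 and 3, adjusted p = 0.999 from limma), with -1.29 in batch 1, -0.76 in batch 2 and -0.43 in batch 3. That of *Cacna1a* was -2.44 (standard error 1.17, n = 4 and 3, adjusted p = 0.999 from limma), with -3.43 in batch 1, -0.10 in batch 2 and -2.59 in batch 3. These 2 of the 47 genes, both lower, had an unadjusted p-value under 0.05 (all genes, 4.65%), and 0 passed the adjusted threshold by limma (all genes, 0.0201%). The groups did not overlap for 3 genes (all genes, 6.69%). Lower were *Atp2b4* and *Stim2*, a sensor of calcium in the endoplasmic reticulum, and higher was *Trpc1*. *Stim2* read -0.49, 0.24, 0.55 and 0.98 against 1.62, 1.02 and 1.07, and *Trpc1* 0.54, -0.02, 0.05 and 0.15 against -0.21, -1.59 and -0.78. The 47 genes had a median of -0.13 (all genes, 0.03), and 22 were positive. The count of 2 became 4 without REST cKO sham replicate 6, and it was 0 without REST cKO sham replicate 23 or REST cKO SCI day 3 replicate 9 or 15. All 5 neuron markers were negative, 1 at an unadjusted p-value under 0.05, and their sums of 19.6, 17.9, 21.0 and 19.1 lay below those of sham (31.9, 24.7 and 33.8). Inhibitory neuron sums were 5.22, 3.33, 4.12 and 3.56 against 9.75, 11.7 and 8.96, also without overlap, with 0 of 4 markers positive. Of astrocyte markers 0 of 4 were positive. All 8 microglia markers were positive, and other lists had 2 of 8 microglia markers higher and 2 of 6 excitatory neuron markers lower at that limit. Their part in the result was not tested.

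At day 7 after injury of REST cKO neurons the 2 genes with an unadjusted p-value under 0.05 were *Cacna2d1* and *Cacnb2*, both higher (all genes at this limit, 5.67%). *Cacna2d1* read 2.47, 3.33 and 1.16 in the injured and 1.82, -2.55 and -2.27 in the sham libraries. *Cacnb2* read 0.01, 0.83 and 1.15 and -3.40, -1.21 and -1.53. For *Cacna2d1* 1 sham library, replicate 6, lay within the injured range and the other 2 were under -2, while for *Cacnb2* the groups did not overlap. The log2 fold change of *Cacna2d1* was 3.43 (standard error 1.10, n = 3 and 3, adjusted p = 0.814 from limma), with 0.65 in batch 1, 5.89 in batch 2 and 3.43 in batch 3. It was 5.79 without REST cKO sham replicate 6. That of *Cacnb2* was 2.97 (standard error 1.25, n = 3 and 3, adjusted p = 0.840 from limma), with 3.41 in batch 1, 2.04 in batch 2 and 2.68 in batch 3. Without that library it was 1.88. By limma 0 of the 47 genes had an adjusted p under 0.1 (all genes, 0%). The groups did not overlap for 4 of them (all genes, 10.7%), *Cacna1a*, *Cacna1h* and *Cacnb2* being higher and *Atp2b4* lower. *Cacna1h*, the pore of a T-type channel that opens near the resting potential, read 2.12, 1.63 and 1.52 after injury and 0.60, -0.78 and -0.10 in sham, a fitted difference of 1.73 (standard error 1.20). The median of the 47 was 0.19 (all genes, 0.07), with 27 positive. The count of 2 became 4 without REST cKO sham replicate 18. Of 5 neuron markers 1 was lower at an unadjusted p-value under 0.05, with sums of 27.1, 25.6 and 20.6 against 31.9, 24.7 and 33.8. Inhibitory neuron sums of 6.54, 7.50 and 4.88 against 9.75, 11.7 and 8.96 did not overlap. Other lists had 1 of 8 microglia markers higher and 1 of 4 inhibitory neuron markers lower, and their part in the result was not tested.

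Whether the response to injury differed between the genotypes was tested directly as the interaction of genotype and injury, which is the REST cKO response minus the WT response. At day 3 *Cacna1a* had the 1 unadjusted p-value under 0.05 among the 47 genes (all genes, 5.15%), with an interaction of -4.54 on the log2 scale (standard error 1.84, adjusted p = 0.950 from limma). Its group means stood at -0.50 ± 1.89 (SD, n = 4) in WT sham and 1.17 ± 0.30 (SD, n = 3) at day 3. In REST cKO they stood at -0.44 ± 1.61 (SD, n = 3) and -2.46 ± 0.48 (SD, n = 4). The WT mean was thus higher and the REST cKO mean lower after injury, with both sham groups widely scattered. At day 7 *Cacna2d1* had an interaction of 6.25 (standard error 1.55, adjusted p = 0.298 from limma). *Cacnb2* had one of 4.58 (standard error 1.77, adjusted p = 0.663 from limma). These 2 of 47 genes had an unadjusted p-value under 0.05 (all genes, 6.35%). The group means of *Cacna2d1* stood at 0.46 ± 0.91 (SD, n = 4) in WT sham and -2.40 ± 0.80 (SD, n = 3) in WT at day 7. They were -1.0 ± 2.45 (SD, n = 3) in REST cKO sham and 2.32 ± 1.09 (SD, n = 3) in REST cKO at day 7. Those of *Cacnb2*, in the same order, stood at 0.29 ± 0.91 (SD, n = 4), -1.16 ± 0.42 (SD, n = 3), -2.05 ± 1.19 (SD, n = 3) and 0.66 ± 0.59 (SD, n = 3). In both genes the injured mean was below sham in WT and above sham in REST cKO. By limma 0 of 47 genes passed the adjusted threshold in either interaction (all genes, 0% at day 3 and 0.0201% at day 7). Without REST cKO sham replicate 6, whose *Cacna2d1* value of 1.82 was far above the other 2 of its group, the gene passed at day 7 (9.08, adjusted p = 0.0680 from limma). The adjusted p of *Cacna2d1* ranged from 0.0680 to 0.727 over the alternatives. The unadjusted count at day 3 was 4 without WT SCI day 3 replicate 16 or REST cKO SCI day 3 replicate 20, 3 without REST cKO sham replicate 6, and it was 2 without REST cKO sham replicate 23. At day 7 it was 5 without REST cKO sham replicate 6. At day 3 the median interaction of the 47 genes was -0.48 (all genes, 0.03) with 17 positive. At day 7 it was 0.06 (all genes, 0.19) with 27 positive. Quantile normalization turned the day 7 medians to -0.10 and -0.02. All 5 neuron markers had negative interactions on both days, 2 of them at an unadjusted p-value under 0.05 at day 3. The 4 astrocyte markers were also negative on both days, and the 6 excitatory neuron and 5 endothelial markers at day 3. At day 3 other lists had 1 of 8 microglia markers higher and 1 of 6 excitatory neuron, 2 of 4 astrocyte and 2 of 5 endothelial markers lower, and the part of these markers in the result was not tested.

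**Figure D3:**
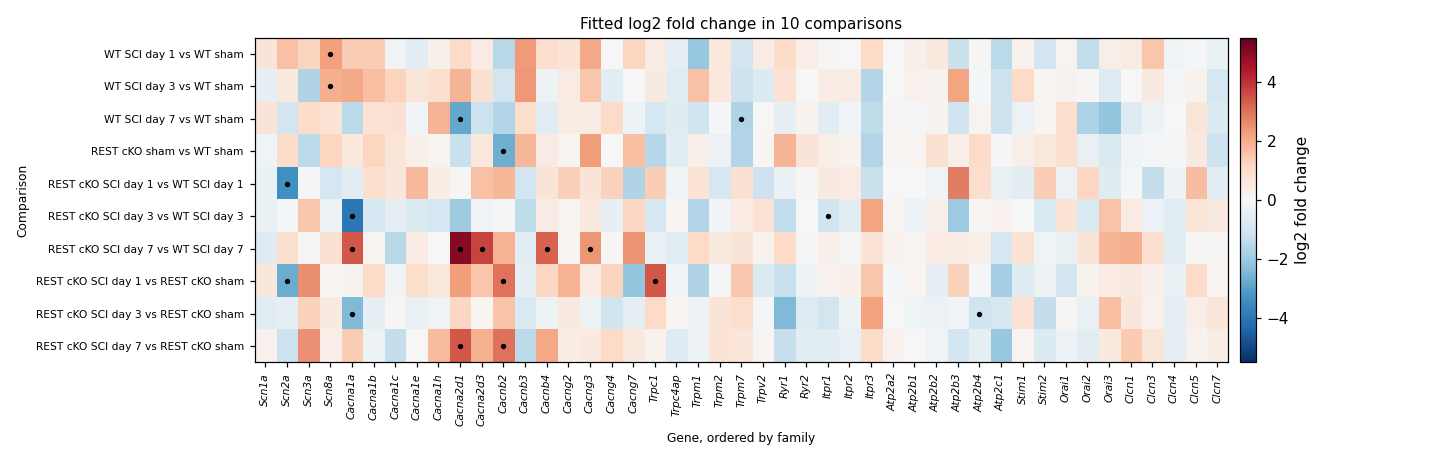
Fitted log2 fold changes of the genes described here (columns, ordered by family) in the 10 comparisons of pairs of groups (rows), from blue for lower to red for higher in the first-named group; a dot marks an unadjusted p-value under 0.05. The dots fall on 12 genes, and 5 of the dots lie in the comparison of REST cKO and WT at day 7, and 0 differences had an adjusted p under 0.1 by limma.

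*Scn1a* and *Scn3a* showed no difference with an unadjusted p-value under 0.05. *Scn3a* (chr2:65457118-65567627, minus strand), *Scn2a* and *Scn1a* (chr2:66270778-66440840, minus strand) lie in 1 cluster on chromosome 2. *Scn1a*, the channel on which fast-spiking inhibitory neurons depend, had group means from -0.93 ± 1.35 (SD, n = 4) in REST cKO SCI day 3 to 0.65 ± 0.75 (SD, n = 3) in WT SCI day 7. In WT SCI day 3 its libraries read -2.47, -0.20 and 1.25, with 1 library far below the others. *Scn3a*, known mainly from the embryonic brain, had group means from -2.10 ± 1.43 (SD, n = 3) in WT SCI day 3 to 0.57 ± 0.30 (SD, n = 2) in REST cKO SCI day 1. Of its 25 values 6 were under -2. The fitted difference of *Scn3a* was 2.57 (standard error 1.29) for REST cKO SCI day 1 against sham. The injured libraries read 0.35 and 0.78 and the sham libraries -3.53, -2.46 and 0.57, so that 1 sham library lay between the injured ones. The group means of *Scn2a* ran from -1.06 ± 1.94 (SD, n = 2) in REST cKO SCI day 1 to 1.92 ± 0.61 (SD, n = 3) in WT SCI day 1. Those of *Scn8a* ran from 0.28 ± 0.20 (SD, n = 4) in WT sham to 2.31 ± 0.12 (SD, n = 3) in WT SCI day 1.

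Among the calcium channel pore subunits, *Cacna1b*, *Cacna1c*, *Cacna1e* and *Cacna1h* never had an unadjusted p-value under 0.05. *Cacna1b* had group means from -0.50 ± 0.57 (SD, n = 4) in WT sham to 1.34 ± 0.94 (SD, n = 2) in REST cKO SCI day 1. *Cacna1c*, the main L-type channel, which couples activity to gene expression, ran from -0.65 ± 0.86 (SD, n = 3) in REST cKO SCI day 7 to 0.91 ± 1.84 (SD, n = 3) in WT SCI day 3. At WT SCI day 3 *Cacna1c* read 2.81, 0.79 and -0.87, widely spread. *Cacna1e*, the R-type channel, had group means from 0.29 ± 2.11 (SD, n = 3) in WT SCI day 1 to 1.63 ± 1.17 (SD, n = 2) in REST cKO SCI day 1. Those of *Cacna1h* ran from -0.13 ± 0.40 (SD, n = 4) in REST cKO SCI day 3 to 1.76 ± 0.49 (SD, n = 3) in WT SCI day 7. At WT SCI day 1 *Cacna1h* read 3.15, -0.55 and -1.80, also widely spread. Of the auxiliary subunits, *Cacnb3* had group means from -1.46 ± 1.43 (SD, n = 4) in WT sham to 0.79 ± 0.42 (SD, n = 3) in WT SCI day 1. *Cacng2*, the AMPA receptor partner stargazin, ran from 0.18 ± 1.03 (SD, n = 4) in WT sham to 2.11 ± 1.02 (SD, n = 2) in REST cKO SCI day 1. For *Cacng2* the fitted differences ran from 0.01 to 1.92 over the 12 comparisons. *Cacng4* and *Cacng7*, which also attend AMPA receptors, had differences of -1.09 to 1.26 and -2.12 to 2.49, without an unadjusted p-value under 0.05.

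Of the TRP genes, *Trpm2*, a calcium-permeable channel gated by ADP-ribose under oxidative stress, had group means from 1.20 ± 0.21 (SD, n = 2) in REST cKO SCI day 1 to 2.16 ± 0.75 (SD, n = 3) in WT SCI day 3. *Trpv2* ran from 0.16 ± 2.35 (SD, n = 3) in WT SCI day 3 to 1.07 ± 1.41 (SD, n = 3) in REST cKO sham. *Trpm1*, best known from retinal bipolar cells, had 5 values under -2 and group means from -2.17 ± 0.74 (SD, n = 2) in REST cKO SCI day 1 to 0.67 ± 0.99 (SD, n = 3) in WT SCI day 3. *Trpc4ap* ran from 0.51 ± 0.97 (SD, n = 3) in REST cKO SCI day 7 to 1.71 ± 0.44 (SD, n = 4) in WT sham. Fitted differences of these 4 genes stayed between -2.09 and 1.60, none with an unadjusted p-value under 0.05. For *Trpc1* group means ran from -0.86 ± 0.69 (SD, n = 3) in REST cKO sham to 2.51 ± 1.48 (SD, n = 2) in REST cKO SCI day 1. For *Trpm7* they ran from 0.30 ± 1.14 (SD, n = 3) in WT SCI day 7 to 1.92 ± 1.23 (SD, n = 2) in REST cKO SCI day 1.

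Of the intracellular release channels, *Ryr2*, *Itpr1* and *Itpr2* had no value under -2. *Ryr2*, the ryanodine receptor that predominates in brain and heart, lay between 0.12 and 2.23 in the 25 libraries. Its group means ran from 1.19 ± 0.14 (SD, n = 3) in WT SCI day 3 to 1.87 ± 0.37 (SD, n = 3) in REST cKO sham, and its fitted differences from -0.82 to 0.72. *Ryr1*, the skeletal muscle form, had 10 of its 25 values under -2. *Itpr1* had group means from 1.03 ± 0.50 (SD, n = 4) in REST cKO SCI day 3 to 2.07 ± 0.86 (SD, n = 2) in REST cKO SCI day 1. *Itpr2* ran from 1.52 ± 0.34 (SD, n = 3) in REST cKO SCI day 7 to 2.12 ± 1.02 (SD, n = 2) in REST cKO SCI day 1. *Itpr3* ran from -0.67 ± 2.61 (SD, n = 3) in WT SCI day 7 to 1.01 ± 1.72 (SD, n = 3) in WT SCI day 1, with a pooled standard deviation of 1.56 against 0.46 for *Itpr2*. The pumps that clear calcium included the steadiest genes. *Atp2a2*, which refills the endoplasmic reticulum, had group means from 2.57 ± 0.31 (SD, n = 3) in WT SCI day 3 to 2.90 ± 0.29 (SD, n = 3) in REST cKO SCI day 7. *Atp2b1*, the ubiquitous plasma membrane pump, ran from 2.52 ± 0.08 (SD, n = 4) in REST cKO SCI day 3 to 2.85 ± 0.17 (SD, n = 3) in WT SCI day 1. Fitted differences over the 12 comparisons were -0.08 to 0.25 for *Atp2a2* and -0.48 to 0.27 for *Atp2b1*. Their standard errors were 0.23 to 0.40 and 0.22 to 0.37. *Atp2b2*, the fast pump of neurons and hair cells, had group means from 1.43 ± 0.73 (SD, n = 4) in WT sham to 2.19 ± 0.49 (SD, n = 3) in REST cKO sham. *Atp2b4* ran from 0.98 ± 0.59 (SD, n = 3) in WT SCI day 3 to 2.09 ± 0.11 (SD, n = 3) in REST cKO sham. *Atp2c1*, which loads the Golgi apparatus, ran from -0.22 ± 1.75 (SD, n = 3) in REST cKO SCI day 7 to 1.77 ± 0.61 (SD, n = 4) in WT sham, with fitted differences of -2.06 to 0.29. *Atp2b3* (chrX:73503086-73571005) and *Clcn5* (chrX:7153810-7319358) are the 2 genes of the 47 on the X chromosome. *Atp2b3* had group means from -2.17 ± 1.00 (SD, n = 3) in WT SCI day 7 to 0.78 ± 0.94 (SD, n = 3) in WT SCI day 3 and 6 values under -2. Neither gene had an unadjusted p-value under 0.05.

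Store-operated entry joins the reticulum sensors *Stim1* and *Stim2* to the Orai channels of the plasma membrane. *Stim1* had group means from -0.07 ± 1.17 (SD, n = 2) in REST cKO SCI day 1 to 1.39 ± 0.53 (SD, n = 4) in REST cKO SCI day 3. *Stim2* ran from 0.27 ± 0.34 (SD, n = 3) in WT SCI day 1 to 1.23 ± 0.33 (SD, n = 3) in REST cKO sham. *Orai1* had group means from 0.62 ± 1.03 (SD, n = 2) in REST cKO SCI day 1 to 1.76 ± 0.64 (SD, n = 4) in REST cKO SCI day 3. *Orai2* ran from -1.67 ± 1.15 (SD, n = 3) in WT SCI day 7 to 0.15 ± 1.62 (SD, n = 4) in WT sham. In WT sham *Orai2* read -0.78, -0.33, 2.55 and -0.84, so replicate 14 stood more than 2 log2 units above the rest of its group. *Orai3* ran from -0.88 ± 2.09 (SD, n = 3) in WT SCI day 7 to 1.92 ± 0.52 (SD, n = 4) in REST cKO SCI day 3. None of the 5 genes had an unadjusted p-value under 0.05, and their fitted differences lay between -2.12 and 2.68. Of the Clcn genes, those of the endosomal exchangers *Clcn3* and *Clcn4* and the lysosomal exchanger *Clcn7* had no value under -2. *Clcn3* had group means from 1.07 ± 0.88 (SD, n = 3) in WT SCI day 7 to 2.44 ± 0.18 (SD, n = 3) in WT SCI day 1. *Clcn4* ran from 2.17 ± 0.26 (SD, n = 4) in REST cKO SCI day 3 to 2.82 ± 0.07 (SD, n = 3) in WT SCI day 7, and *Clcn7* from 1.51 ± 0.59 (SD, n = 3) in REST cKO sham to 2.26 ± 0.72 (SD, n = 4) in WT sham. *Clcn4* was the most evenly measured of them, with a pooled standard deviation of 0.40. Its day 3 and day 7 REST cKO means, 2.17 ± 0.26 (SD, n = 4) and 2.21 ± 0.46 (SD, n = 3), were below its REST cKO sham mean of 2.69 ± 0.67 (SD, n = 3) by less than the sham spread. *Clcn5* ran from -0.47 ± 1.04 (SD, n = 3) in WT SCI day 1 to 0.95 ± 1.18 (SD, n = 2) in REST cKO SCI day 1. *Clcn1*, the chloride channel of skeletal muscle, ran from -2.24 ± 1.05 (SD, n = 3) in WT SCI day 7 to -0.36 ± 0.11 (SD, n = 3) in REST cKO SCI day 7 with 9 values under -2.

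Genes that work with these channels but lie outside the 47 were examined as 2 lists. One held 15 partners of sodium channels, such as the ankyrins and fibroblast growth factor homologous factors, with the sodium pump, of which 13 were measured. The other held 35 genes of calcium exchange, buffering and sensing, of which 30 were measured. In limma's test 0 genes of either list had an adjusted p under 0.1 in any of the 12 comparisons. At an unadjusted p-value under 0.05 the sodium list had 4 higher and 0 lower at day 1 in WT, 4 higher and 0 lower at day 3 and 0 higher and 0 lower at day 7. The calcium list had 2 higher and 0 lower at day 1 in WT, 2 higher and 0 lower at day 3 and 0 higher and 0 lower at day 7. Of all genes, 6.43%, 6.90% and 6.89% met this limit in these comparisons. For REST cKO against WT the numbers higher and lower were 4 and 0 in sham, 0 and 1 at day 1, 1 and 2 at day 3 and 2 and 0 at day 7 for the sodium list. For the calcium list they were 3 and 0 in sham, 0 and 1 at day 1, 0 and 0 at day 3 and 3 and 0 at day 7, with 6.91%, 3.81%, 6.37% and 9.95% of all genes at the limit. For injury in REST cKO they were 1 and 1 at day 1, 0 and 2 at day 3 and 0 and 1 at day 7 in the sodium list, and 0 and 0 at day 1, 0 and 1 at day 3 and 0 and 0 at day 7 in the calcium list (all genes, 5.29%, 4.65% and 5.67%). For the interactions they were 0 and 2 at day 3 and 0 and 0 at day 7 in the sodium list, and 0 and 2 at day 3 and 0 and 0 at day 7 in the calcium list (all genes, 5.15% and 6.35%). All 5 neuron markers were positive in WT at days 1 and 3, in REST cKO sham and in REST cKO against WT at day 7, and their part was not tested. Chosen after their values were seen, *Slc24a2*, a potassium-dependent sodium-calcium exchanger, differed by 2.26 (standard error 0.49, n = 3 and 4, adjusted p = 0.197 from limma) at day 1 in WT. *Vsnl1*, a neuronal calcium sensor, differed by 3.35 (standard error 0.68, n = 3 and 3, adjusted p = 0.109 from limma) between REST cKO and WT at day 7. The groups did not overlap for either gene. Means were 2.84 ± 0.09 (SD) against 0.99 ± 0.69 for *Slc24a2*, and 2.30 ± 0.83 against -0.81 ± 1.08 for *Vsnl1*.

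Promoters were searched for the RE1 element, since REST is the factor targeted for deletion in these neurons. RefSeq promoter windows of GRCm38.p6, 250 bases before to 50 after a gene's start, were matched by symbol for 38 of the 47 genes. Those without a window included *Atp2a2*, *Atp2b3*, *Cacna1a*, *Cacna1h*, *Cacng4*, *Itpr1* and *Scn3a*. The letters searched on both strands were CAGCACC, then 2 bases of any kind, then GGACAG, and each part of this element alone. The whole element occurred in 0 of the 38 windows, and in 3 of the 7748 windows of all genes tested (0.0387%). Its left part, CAGCACC, occurred in 3 of 38 (7.89%, all genes 9.19%), namely *Clcn4*, *Clcn7* and *Itpr3*. Its right part, GGACAG, occurred in 11 of 38 (28.9%, all genes 26.5%), namely *Atp2b2*, *Atp2c1*, *Cacnb3*, *Clcn1*, *Itpr2*, *Scn8a*, *Stim1*, *Stim2*, *Trpm2*, *Trpm7* and *Trpv2*. A match is a description and was not tested, and gene bodies, where RE1 elements can also lie, were not searched. Of the 12 genes with an unadjusted p-value under 0.05, *Scn8a* and *Trpm7* had a match, both of the right part, which *Scn8a* holds on the opposite strand. Their windows are printed 5′ to 3′ on the gene's strand, with the matched letters in capitals. The *Scn8a* window (chr15:100936021-100936320, plus strand) lies inside the annotated gene span, with 50 of its 300 bases in exons and the rest in an intron of longer transcripts. That of *Trpm7* (chr2:126876212-126876511, minus strand) has 19 bases in the annotated gene, all in an exon, and 281 outside it.
Scn8a: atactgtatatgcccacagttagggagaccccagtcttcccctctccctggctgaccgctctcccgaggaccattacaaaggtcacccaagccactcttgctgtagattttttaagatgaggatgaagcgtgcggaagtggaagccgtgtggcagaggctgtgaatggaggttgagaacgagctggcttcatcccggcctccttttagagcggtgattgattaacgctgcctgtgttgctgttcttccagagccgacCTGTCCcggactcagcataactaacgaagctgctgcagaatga
Trpm7: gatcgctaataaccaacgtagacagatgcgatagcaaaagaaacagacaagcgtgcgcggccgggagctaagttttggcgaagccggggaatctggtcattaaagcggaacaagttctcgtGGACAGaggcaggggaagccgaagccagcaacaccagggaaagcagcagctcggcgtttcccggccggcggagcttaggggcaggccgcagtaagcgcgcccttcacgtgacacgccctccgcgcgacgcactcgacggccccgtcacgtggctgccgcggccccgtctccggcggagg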

How the data were processed

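The authors deposited 1 table of log2 normalized counts, made (study's methods, submitters' processing notes) with STAR (mm10/GRCm38), Salmon, tximport, the geometric-mean scaling of DESeq2 and RUV removal of batch effects, after which genes without counts in most samples were dropped and 2 components of sequencing metrics were regressed out. The same table holds the authors' own log2 fold changes, p-values and adjusted p-values, which were not used. Of 9955 rows, 24 (0.241%) without a symbol were left out. Read totals are not in the table, so each library's depth and counting error are unknown.

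All 9931 genes were fitted with limma 3.58.1 in R 4.3.3, with a mean per group and both components over all libraries, empirical Bayes moderation with a trend and Benjamini-Hochberg adjustment (threshold 0.1). Alternatives were no components, an added batch term, an added sex term, weights per library, dropping genes that average below 0, quantile normalization, leaving out each library and, chosen after seeing the data, a term for the share of values under -2. The members and lists were chosen with earlier results of these data known.

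Named genes are those with an unadjusted p-value under 0.05, a set of channel, receptor and pump genes representing each role, and *Rest*; others were named for a lack of overlap or after their values were seen. Marker levels were summed as 2 to the power of the log2 value. Gene positions are from the GENCODE annotation of GRCm38, promoter sequences from RefSeq (GRCm38.p6). The RE1 search planned over gene spans needs a genome sequence and was made in promoter windows instead. Some withheld items were left out.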

Additional observations from a re-analysis of the deposited data

Results flagged for a closer look

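In groups of 4 libraries, a library was singled out by Dixon's test, which sets the gap to the nearest library against the whole range. This held for 8 of 118 group values tested, and chance gives about 1 in 20 groups. In REST cKO SCI day 3, replicate 20 was the highest for 3 calcium pumps: *Atp2a2* at 3.00, where the other 3 libraries read 2.58 to 2.60, *Atp2b1* at 2.64, where the other 3 libraries read 2.47 to 2.49, and *Atp2b2* at 3.06, where the other 3 libraries read 1.43 to 1.69. The male mouse of that group gave this library, the other 3 being female. In the same group *Rest* stood apart in replicate 27 at -1.61, where the other 3 libraries read -0.31 to -0.04.

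In WT sham, *Cacng2* was low in replicate 3 at -1.36, where the other 3 libraries read 0.60 to 0.76, and *Clcn1* was low in replicate 10 at -3.16, where the other 3 libraries read -1.25 to -0.92. *Orai2* was high in replicate 14 at 2.55, where the other 3 libraries read -0.84 to -0.33. *Scn8a* was highest in replicate 17 at 0.58, where the other 3 libraries read 0.15 to 0.22. No interaction of genotype and injury passed an adjusted p of 0.1 in limma's test for any of the 47 genes; 3 had an unadjusted p-value under 0.05.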

How the results depend on the processing

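The counts of the 47 genes that moved by more than 1.5 times are given here, at an unadjusted p-value under 0.05 unless stated. Without the components the count was 3 (from 1) for WT SCI day 1 against sham, 2 (from 1) for REST cKO against WT in sham, 1 (from 2) for REST cKO against WT at day 3 and 0 (from 2) for REST cKO SCI day 3 against sham. With a term for batch it was 4 (from 1) for WT SCI day 1 against sham, 1 (from 2) for REST cKO against WT at day 3 and 1 (from 2) for REST cKO SCI day 3 against sham, and with a term for sex 3 (from 1) for WT SCI day 1 against sham, 4 (from 2) for WT SCI day 7 against sham and 3 (from 1) for the day 3 interaction. Library weights gave 1 (from 0) for WT SCI day 1 against sham at the adjusted threshold, 5 (from 1) for WT SCI day 1 against sham, 1 (from 2) for WT SCI day 7 against sham, 2 (from 1) for REST cKO against WT in sham, 2 (from 1) for REST cKO against WT at day 1 and 1 (from 2) for REST cKO against WT at day 3. With genes averaging below 0 dropped it was 0 (from 1) for REST cKO against WT in sham, 1 (from 2) for REST cKO against WT at day 3, 1 (from 0) for REST cKO against WT at day 7 at the adjusted threshold, 2 (from 5) for REST cKO against WT at day 7, 1 (from 2) for REST cKO SCI day 3 against sham, 1 (from 2) for REST cKO SCI day 7 against sham, 0 (from 1) for the day 3 interaction and 1 (from 2) for the day 7 interaction; this setting tests fewer genes, and 16 of the 47 leave it. Quantile normalization gave 2 (from 1) for WT SCI day 1 against sham, 1 (from 2) for WT SCI day 7 against sham and 1 (from 2) for REST cKO against WT at day 3. The term for the share of values under -2, chosen after seeing the data, gave 4 (from 2) for WT SCI day 7 against sham, 1 (from 2) for REST cKO against WT at day 3, 1 (from 0) for REST cKO against WT at day 7 at the adjusted threshold, 5 (from 3) for REST cKO SCI day 1 against sham and 1 (from 2) for REST cKO SCI day 3 against sham. In each case the cause was not tested.

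Leave-one-out fits gave counts from 1 to 3 for WT SCI day 1 against sham, 1 to 3 for WT SCI day 3 against sham, 1 to 3 for WT SCI day 7 against sham, 0 to 4 for REST cKO against WT in sham, 0 to 2 for REST cKO against WT at day 1, 1 to 5 for REST cKO against WT at day 3, 4 to 6 for REST cKO against WT at day 7, 1 to 3 for REST cKO SCI day 1 against sham, 0 to 4 for REST cKO SCI day 3 against sham, 2 to 4 for REST cKO SCI day 7 against sham, 1 to 4 for the day 3 interaction and 2 to 5 for the day 7 interaction. At the adjusted threshold they gave 0 to 1 for the day 7 interaction and 0 for each other comparison. A group of 2 left with 1 library was assumed to vary like the others. No paired analysis was possible because the groups share no replicate numbers.

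The alternatives were run for the fold changes with an unadjusted p-value under 0.05 and for those of *Rest*, and not for other genes. None of these fold changes had another sign, and 190 fits with all libraries and 210 with a library left out stayed on their side of the threshold. The exceptions, 3 and 1, were *Scn8a* and *Cacna2d1* as given in the report. The unknown depth of single libraries limits the reading of values under -2, and sex is confounded with genotype at day 7.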
